A study of Bos taurus with 16 samples.

Results

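The BCL2 family was followed in CD14+ cells sorted from the endometrium and from the blood of 4 pregnant cows. Of the 10 genes chosen, BCL2, BCL2L1, BCL2L2, BCL2L11, BCL2A1, MCL1, BAX, BAK1, BID and BAD, 9 were found on the array under their symbol or gene identifier, with 10 probes in all. No probe was found under the name BID. The array carried 21475 probes under 19697 names. The cows were at days 164, 239, 242 and 248 of pregnancy (animals 1 to 4), and were sampled at slaughter. Endometrial cells came from enzymatically dispersed tissue between the placentomes and were 90 to 95% pure by flow cytometry, and the cells sorted from mononuclear blood cells were 98 to 99% pure. Amplified RNA of both tissues of an animal was hybridized together on 2-colour Agilent arrays, as 2 technical replicates, so that the 4 animals and not the 8 arrays were the replicates. The dyes were exchanged between the technical replicates in animals 1, 2 and 4, and not in animal 3.

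Proteins of the BCL2 family decide whether the outer membrane of the mitochondrion stays closed. BCL2, BCL2L1 (the gene of BCL-XL), BCL2L2 (BCL-W), BCL2A1 (A1) and MCL1 keep it closed by holding their partners bound, BAX and BAK1 form the pores that open it, and the BH3-only proteins BCL2L11 (BIM), BID and BAD sense stress and free or activate the pore formers. Once it opens, cytochrome c leaves, the apoptosome assembles on APAF1 and caspases are activated. Monocytes of the blood are short-lived cells that die by this pathway unless they receive survival signals or become macrophages.

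Members were found in 4 ways. The array's own gene name gave 3 probes (BCL2, BCL2A1 and BAX), and the symbol in the probe's description gave another 3 (MCL1, BAK1 and BAD). In 3 more, BCL2L1, BCL2L2 and a further probe for BCL2, the description stood in the column for accessions, and the probe had been designed on an expressed sequence tag. BCL2L11 was named only through its gene identifier, LOC507390, in a RefSeq table of assembly ARS-UCD2.0. None of the probes was placed on a transcript here, so the exon or untranslated region each of them covers is not given.

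Values are the authors' log2 normalized intensities, averaged over the 2 spots of a probe and over the technical replicates, and the log2 ratio is endometrium minus blood within an animal. Tests covered the probes that the scanner software marked as above background in 4 or more of the 8 channels of either tissue, and a probe was called if limma's adjusted p was at most 0.05 and the fold change over 2. All 10 probes of the family were tested. The rule called 224 of 16654 probes (1.35%), 204 of them (1.22%) higher in endometrium and 20 (0.120%) higher in blood, and it called 0 of the 10 probes of the family. At an unadjusted p of 0.05, 1 probe of the family was higher in endometrium (BCL2L1) and 1 was higher in blood (BCL2L11), against 7.98% and 8.05% of all probes. The log2 ratios of the family ranged from -1.96 to 2.56, with 5 above and 5 below 0. Their median was 0.13 beside -0.139 for all probes tested, a value that became -0.023 with renormalized scanner signals and -0.011 with centred ratios, so ratios are best read against that shift. The median size of the log2 ratio, regardless of sign, was 0.85 in the family and 0.64 over all probes tested.

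**Figure D1:**
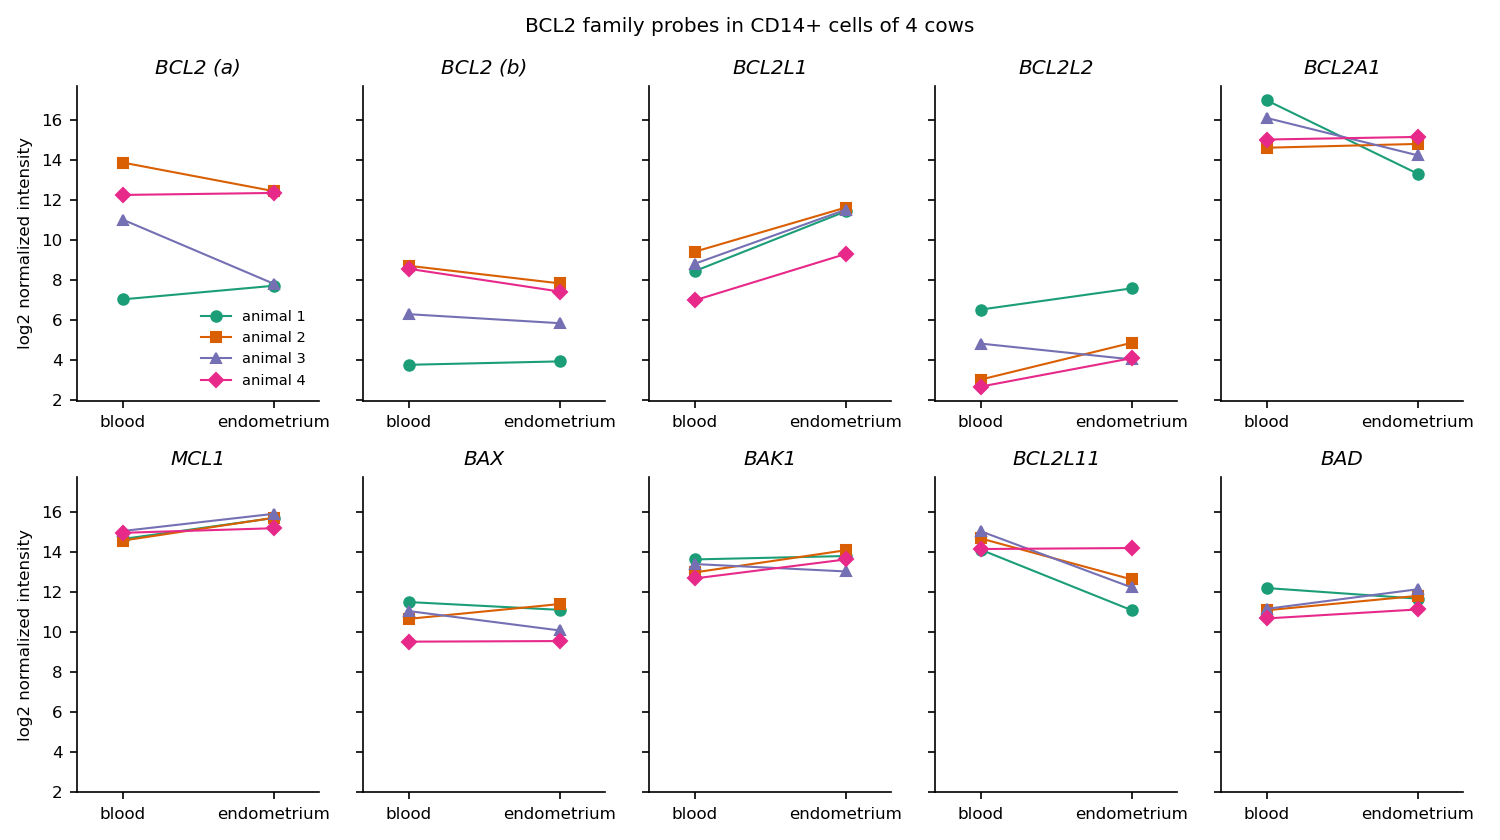
Log2 normalized intensity (vertical axis) of each BCL2 family probe in blood and in endometrial CD14+ cells, with 1 line for each of the 4 animals; BCL2 (a) and BCL2 (b) are probes A_73_105383 and A_73_117866. BCL2L1 is higher in endometrium by 2.21 to 3.00 in all 4 animals, and BCL2L11 is lower there in animals 1, 2 and 3 and level in animal 4.

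BCL2L1 had the highest log2 ratio of the family, and the adjusted p of its difference lay just past the limit. It encodes BCL-XL, which binds BAX, BAK1 and BH3-only proteins. Its probe, A_73_119599, was designed on an expressed sequence tag and begins with the 30 bases printed here, to show on what sequence the largest ratio of the family was measured.
BCL2L1: agcccacactttttccagctctttgaaata
In endometrial cells the log2 level of BCL2L1 was 11.44, 11.63, 11.52 and 9.31 in animals 1 to 4, and in blood cells it was 8.45, 9.42, 8.82 and 6.99. Animal 4 was lowest in both tissues, and its endometrial level lay just under the blood level of animal 2, so the groups overlapped although every animal was higher in its endometrium. The log2 ratio was 3.00, 2.21, 2.70 and 2.33 in the 4 animals. The ratios had an SD of 0.36 (n = 4 animals), the smallest spread among the 10 probes. The mean log2 ratio was 2.56 ± 0.45 (SE from limma, n = 4 animals; 95% interval 1.50 to 3.61), a 5.89-fold higher level in endometrium. It ranked 608 from the top among the 16654 probes.

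The adjusted p of BCL2L1 was 0.0518 by limma, so it missed the call. Its unadjusted p by limma was 0.000712, and the highest that passed the adjustment was 0.000658. The call was reached with centred ratios (limma adjusted p = 0.0459) and with a stricter filter on dim probes (limma adjusted p = 0.0255). Technical replicate 2 alone also reached it (limma adjusted p = 0.0389). So did limma fitted to single arrays, 8 in all, with a term for dye (adjusted p = 0.00628). That fit treated arrays of the same animal as correlated, at 0.985. Its 8 arrays were still technical replicates of 4 animals, so its adjusted p is best read with caution. The call was missed without a filter on dim probes (limma adjusted p = 0.0577) and with the scanner software's processed signals (limma adjusted p = 0.0617). It was also missed with technical replicate 1 alone (limma adjusted p = 0.0777) and without the pairing (limma adjusted p = 0.37). The methods' analysis of variance, as fitted here to the ratios of the animals, gave an adjusted p of 0.225. The paper itself, by its own fit and thresholds, lists BCL2L1 among its differentially expressed genes, as higher in endometrium. With scanner signals that were background-corrected and normalized anew the log2 ratio was 1.92, with a limma adjusted p of 0.158, and the ratios of the animals were then 2.42, 1.83, 2.09 and 1.36. When single animals were left out, the log2 ratio stayed between 2.41 and 2.68, and the limma adjusted p between 0.128 and 0.185. In these arrays of sorted but pooled cells, more cells that carry a transcript and more transcript in each cell cannot be told apart.

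Markers of other cells differed between the tissues as well, and their part in the level of BCL2L1 was not tested. A summed log2 level is the log2 of the summed intensities of the brightest probes of a list, so the brightest markers weigh most. By their brightest probes, all 6 trophoblast markers were called higher in endometrium (CSH1, PRP1, PRP6, PAG4, PAG7 and PAG10), with a median log2 ratio of 5.22. Their summed log2 level was 15.50 to 17.26 in endometrium and 10.40 to 11.76 in blood. Of 8 epithelial markers, 6 were called higher in endometrium, with a median log2 ratio of 4.16 and summed levels of 15.18 to 18.43 in endometrium and 10.80 to 12.85 in blood. Of 6 stromal markers 2 were called higher in endometrium, and of 10 T and NK cell markers 0 were called, with 3 higher in endometrium at limma's unadjusted p. The 6 B cell markers had a median log2 ratio of -3.04 with 0 called and 4 higher in blood at limma's unadjusted p. Of 12 monocyte and macrophage markers 11 had a probe and 1, the mannose receptor gene MRC1, was called, at a log2 ratio of 4.59. At limma's unadjusted p, 5 of these 11 passed with more in endometrium and 0 with more in blood. The 11 log2 ratios had a median of 1.14 and a range of -1.44 to 4.59, with 6 above 0. CD14 itself had a mean log2 level of 9.25 in endometrium and 9.42 in blood and rose above background in every channel. None of the markers with a probe in these 6 lists was below background in every channel of either tissue.

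MCL1, a survival protein with a very short life, was the member whose levels did not overlap between the tissues. Its probe A_73_104021 (LOC511709 on the array) begins with the following 30 bases, shown for comparison with the probe of BCL2L1 as the other member that was higher in every endometrium.
MCL1: gccaagaagggttaggaccaacaaactaat
The log2 level of MCL1 was 15.68, 15.69, 15.89 and 15.17 in the endometrial cells of animals 1 to 4 and 14.63, 14.55, 15.03 and 14.94 in their blood cells. All endometrial levels were above all blood levels, but in animal 4 the tissues lay close together. Levels that do not overlap, with endometrium the higher, were found for 2.70% of all probes tested, and for 1 of the 10 here. With blood the higher, they were found for 3.37% of all probes and for 0 of the 10. The log2 ratio was 1.04, 1.13, 0.86 and 0.23, with a mean of 0.82 ± 0.45 (SE from limma; 95% interval -0.25 to 1.89; limma adjusted p = 0.414). Its unadjusted p by limma was 0.113. It was at most 0.05 with the methods' analysis of variance, and in limma's fits with renormalized signals, without a filter and with the dye term. MCL1 and BCL2L1 were the members that were higher in the endometrium of 4 of 4 animals, 2 of the 10 probes, beside 9.82% of all probes.

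BCL2A1, a survival gene induced in activated leukocytes, was lower in the endometrium of animals 1 and 3 and nearly level between the tissues in animals 2 and 4. Its probe A_73_102275, designed on the RefSeq transcript, is printed whole because its ratio split the animals.
BCL2A1: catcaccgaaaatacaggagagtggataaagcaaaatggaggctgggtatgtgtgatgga
BCL2A1 had log2 levels of 13.32, 14.81, 14.24 and 15.16 in endometrial cells and of 16.99, 14.62, 16.11 and 15.03 in blood cells. The blood cells of animals 1 and 3 were high and their endometrial cells low, with log2 ratios of -3.67 and -1.87. In animals 2 and 4 the ratios were 0.18 and 0.13, with no more than 0.28 in either technical replicate. The mean log2 ratio was -1.31 ± 0.74 (SE from limma; 95% interval -3.06 to 0.45; limma adjusted p = 0.427), and without animal 1 it was -0.52. The granulocyte markers, of which 6 had a probe, had their highest summed log2 level in the blood of animal 1. It was 17.87 there, beside 11.28 to 12.59 in the blood of the other animals, with 11.75 in animal 3. Monocyte and macrophage markers were also highest in the blood of animal 1, at 19.16 beside 14.71 to 15.58 in the others. The part of either list in BCL2A1 was not tested. Of the 6 granulocyte markers 1, CCR3, was called, with a log2 ratio of -4.31.

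BCL2, the founding survival gene of the family, was measured by a pair of probes. The first, A_73_105383, was designed on an expressed sequence tag, and the second, A_73_117866, was described on the array as lying 3′ of the gene. They are shown side by side because they did not give the same ratios.
BCL2 (A_73_105383): caggggattaaattctggctctgatggttt
BCL2 (A_73_117866): caatattcttcaaaaagtcctaagccacgt
By the first probe, endometrial cells had log2 levels of 7.72, 12.45, 7.82 and 12.36 and blood cells of 7.04, 13.88, 11.03 and 12.26. The second probe was dimmer and was above background in 6 of 8 endometrial and 7 of 8 blood channels, with levels of 3.94, 7.84, 5.85 and 7.43 in endometrium and 3.77, 8.72, 6.30 and 8.57 in blood. With both probes, animal 1 was the lowest in each tissue and animals 2 and 4 were the highest, so that the difference between animals was larger than that between tissues. The first probe gave log2 ratios of 0.68, -1.43, -3.21 and 0.11 and the second 0.17, -0.88, -0.45 and -1.14. Both means were below 0, at -0.96 ± 0.71 and -0.58 ± 0.47 (SE from limma), with limma adjusted p of 0.543 and 0.583. Animal 3 gave the first probe its size, since the mean without it was -0.21.

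BCL2L2, the BCL-W gene, was the dimmest member. Its probe, A_73_109044, was above background in 4 of 8 endometrial channels and 2 of 8 blood channels. Endometrial log2 levels were 7.59, 4.87, 4.04 and 4.10, and blood levels were 6.53, 3.03, 4.83 and 2.68. Animal 1 was the highest in both tissues, and animal 3 had the only negative ratio. The log2 ratios of 1.06, 1.84, -0.78 and 1.42 had a mean of 0.88 ± 0.57 (SE from limma; limma adjusted p = 0.484). This mean shrank to 0.15 with renormalized scanner signals, which had an offset of 50 and their own background correction and normalization. The part of each of these in the change was not tested.

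BCL2L11 encodes BIM, the BH3-only protein that kills leukocytes deprived of survival factors. Its probe A_73_120639 begins with these bases, given because it carried the lowest ratio of the family.
BCL2L11: catgtggccgattttccaacggaagcttga
Its log2 levels were 11.07, 12.61, 12.21 and 14.18 in endometrial cells and 14.10, 14.66, 15.02 and 14.13 in blood cells. Blood cells lay within 1 log2 unit of each other, whereas the endometrial cells of animal 4 were at the blood level and those of the other animals were lower. The log2 ratio was -3.02, -2.05, -2.81 and 0.05. The technical replicates of an animal differed by at most 0.12, so animal 4 was apart on both of its arrays. The mean was -1.96 ± 0.63 (SE from limma; 95% interval -3.45 to -0.47), a 3.89-fold higher level in blood with an unadjusted p of 0.017 and an adjusted p of 0.226 by limma. Without animal 4 it was -2.63, with a limma adjusted p of 0.13. Under the remaining settings with the same sample labels the ratio lay between -1.97 and -1.60, and 0 of all settings reached the call. The unadjusted p was above 0.05 with the methods' analysis of variance, and in limma's fits without animal 1 and without animal 3. B cells also express this gene, and the summed log2 level of the B cell markers was 14.60, 15.84, 17.40 and 16.44 in the blood of animals 1 to 4 and 14.09, 13.93, 13.42 and 15.92 in their endometrium. The part of B cells in BCL2L11 was not tested.

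**Figure D2:**
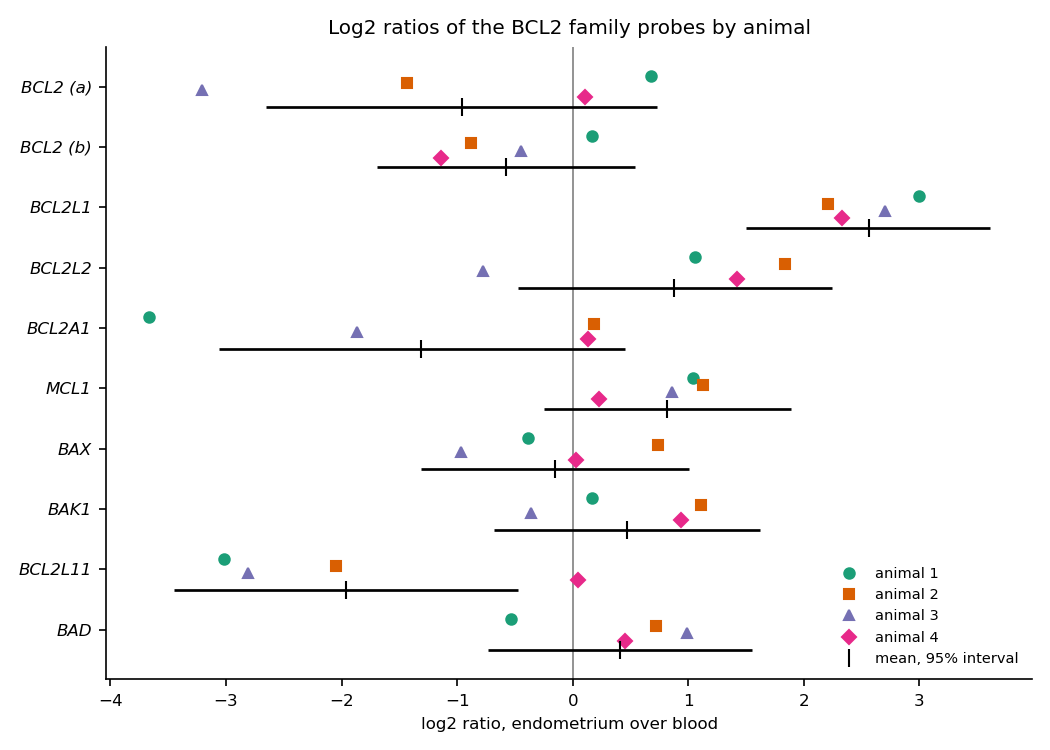
Log2 ratio of endometrium over blood (horizontal axis) for each BCL2 family probe; symbols are the 4 animals and the black bar is the mean with limma's 95% interval. The intervals of BCL2L1 (1.50 to 3.61) and BCL2L11 (-3.45 to -0.47) leave out 0, and those of the other 8 probes include it.

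The pore formers BAX and BAK1 gave no call. The probe of BAX, A_73_114496, was designed on its RefSeq transcript and is printed whole as the probe with the mean closest to 0.
BAX: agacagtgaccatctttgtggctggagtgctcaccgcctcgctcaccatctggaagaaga
BAX had log2 levels of 11.09, 11.38, 10.06 and 9.53 in endometrial and 11.48, 10.64, 11.03 and 9.50 in blood cells. Animal 4 was the lowest in both tissues and animals 1 and 3 were lower in endometrium. The log2 ratios of -0.39, 0.74, -0.97 and 0.03 had a mean of -0.15 ± 0.49 (SE from limma; 95% interval -1.31 to 1.01; limma adjusted p = 0.915), and without animal 3 the mean turned to 0.13. BAK1, by probe A_73_108349 (LOC514090 on the array), had levels of 13.78, 14.07, 13.01 and 13.61 in endometrial and 13.61, 12.96, 13.38 and 12.66 in blood cells. Its log2 ratios were 0.17, 1.11, -0.36 and 0.94, with a mean of 0.47 ± 0.49 (SE from limma; 95% interval -0.68 to 1.62; limma adjusted p = 0.681). For both genes animal 2 had the highest ratio and animal 3 the lowest, and the intervals still allow a 2-fold difference in either direction for BAX.

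BAD, a BH3-only protein that growth factor signals hold inactive by phosphorylation, was measured by A_73_115032 (MGC127164 on the array). Its sequence is the only one of the 10 that holds the polyadenylation signal AATAAA, in capitals in this window of 30 bases.
BAD: tactaaaatgctAATAAAgcccacgtctgt
On the printed strand this hexamer was present in 11.8% of all 21475 probes, and on the other strand in 3.88%. The log2 level of BAD was 11.65, 11.79, 12.12 and 11.11 in endometrial and 12.18, 11.07, 11.14 and 10.66 in blood cells. All levels lay between 10.66 and 12.18, and animal 1 was the only animal with more in blood. The log2 ratios of -0.53, 0.72, 0.99 and 0.45 had a mean of 0.41 ± 0.48 (SE from limma; 95% interval -0.73 to 1.55; limma adjusted p = 0.726). The technical replicates agreed to within 0.07, the best of the family, while the poorest agreement, 1.31, was that of the dim second probe of BCL2.

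The ratio of BCL2L1 was also set against those of other members within each animal. These pairs were chosen after the values were seen and are given without a test. The log2 ratio of BCL2L1 exceeded that of BCL2L11 by 6.02, 4.25, 5.52 and 2.28 in animals 1 to 4. It exceeded that of BAX by 1.46 to 3.67, that of BAK1 by 1.09 to 3.07 and that of BAD by 1.49 to 3.53. Of the survival genes, it exceeded MCL1 by 1.07 to 2.10 and BCL2A1 by 2.02 to 6.67. The survival genes BCL2 and BCL2L2 were not part of these pairs. With BCL2 represented by its brighter probe, A_73_105383, the 5 survival genes had a median log2 ratio of 1.04, 1.13, -0.78 and 0.23 in animals 1 to 4, with 4, 4, 2 and 5 of them higher in endometrium. The second BCL2 probe was lower in endometrium in animal 4. In animal 3 the median was the ratio of the dim BCL2L2, whose probe was above background in 4 of 8 endometrial and 2 of 8 blood channels. BCL2L2 was also among the genes counted as higher in animals 1, 2 and 4. The median of the pore formers BAX and BAK1 was -0.11, 0.93, -0.67 and 0.49, and that of the BH3-only genes BCL2L11 and BAD was -1.78, -0.66, -0.91 and 0.25. In animal 4 both pore formers and both BH3-only genes had ratios above 0 as well.

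**Figure D3:**
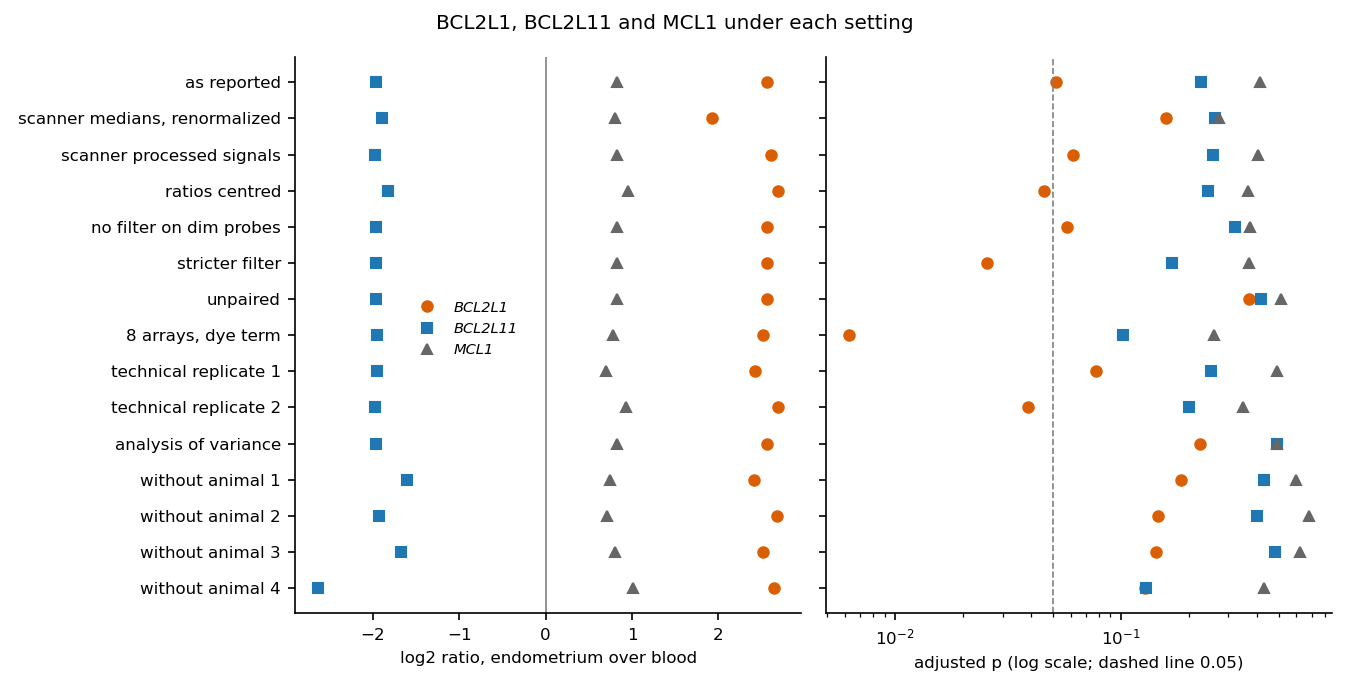
Log2 ratio of endometrium over blood (left) and limma adjusted p on a log axis (right) of BCL2L1, BCL2L11 and MCL1 under each way of processing or testing the values; the analysis of variance has its own p. BCL2L1 lies between 1.92 and 2.69 in every setting plotted and passes the dashed line at 0.05 in 4 of them, and BCL2L11 lies between -2.63 and -1.60 and passes it in 0.

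Of 13 other genes of the family, 10 had a probe that was tested, and 0 were called. Their median log2 ratio was -0.46, with 4 above 0. At limma's unadjusted p, 2 of the 10 were higher in endometrium and 2 higher in blood, against 7.98% and 8.05% of all probes. BCL2L14 had log2 ratios of 1.39, 3.39, 5.63 and 0.59 (mean 2.75; limma adjusted p = 0.215). BOK, a pore former related to BAX, had ratios of 1.56, 3.76, 3.41 and 0.22 (mean 2.24; limma adjusted p = 0.215). Both were higher in the endometrium of every animal, and both were closest to blood in animal 4. BCL2L15 had ratios of -2.88, -3.32, -4.66 and 1.34 (mean -2.38; limma adjusted p = 0.295). The BH3-only gene BIK, named here after its values were seen, had ratios of -0.93, -3.75, -3.76 and 0.21 (mean -2.06; limma adjusted p = 0.276). Animal 4 was thus also the only animal in which BCL2L15 and BIK, by its brighter probe, were not lower in endometrium. A dimmer BIK probe was not tested, being above background in 0 of 8 endometrial channels and 1 of 8 blood channels. Its ratios were -0.28, 0.21, -0.05 and -2.07, with animal 4 the lowest.

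Among genes of the mitochondrial channel and the apoptosome, caspases and caspase inhibitors, 0 were called. The 9 genes of the mitochondrial channel and the apoptosome had a median log2 ratio of -0.27 and ranged from -0.95 to 0.80 by their brightest probes. The lowest means were those of VDAC2 (-0.95), the cytochrome c gene CYCS (-0.85) and VDAC3 (-0.84), with limma's unadjusted p at 0.0793, 0.17 and 0.14. Of 8 caspases 6 had a probe, with a median of -0.50. CASP4, an inflammatory caspase, had the lowest mean, -1.51, and CASP2 had -1.14. Of 6 caspase inhibitors 5 had a probe, with a median of -0.76, among them BIRC6 at -1.05, BIRC3 at -0.92 and CFLAR, the inhibitor of CASP8, at -0.76. By their brightest probes, 0 genes of these lists passed limma's unadjusted p. Dimmer probes of 2 genes, named after their values were seen, did pass it: one for DIABLO, with a mean of -1.83, and one for BIRC5, with a mean of 1.88, where the brightest probes gave 0.02 and 0.15.

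Among 6 regulators that act on the family, 0 were called and the median log2 ratio was 0.08. FOXO3, a transcription factor that induces BCL2L11, had log2 ratios of -1.22, -0.58, -0.59 and -1.90, with a mean of -1.07 (limma adjusted p = 0.327). It was below 0 in all 4 animals, and lowest in animal 4, where BCL2L11 was level between the tissues. HUWE1, a ubiquitin ligase of MCL1, had a mean of 0.70 by its brightest probe, and its 4 probes disagreed, with means from -2.35 to 1.09. BAG1, a partner of BCL2, had a mean of -0.46.

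**Figure D4:**
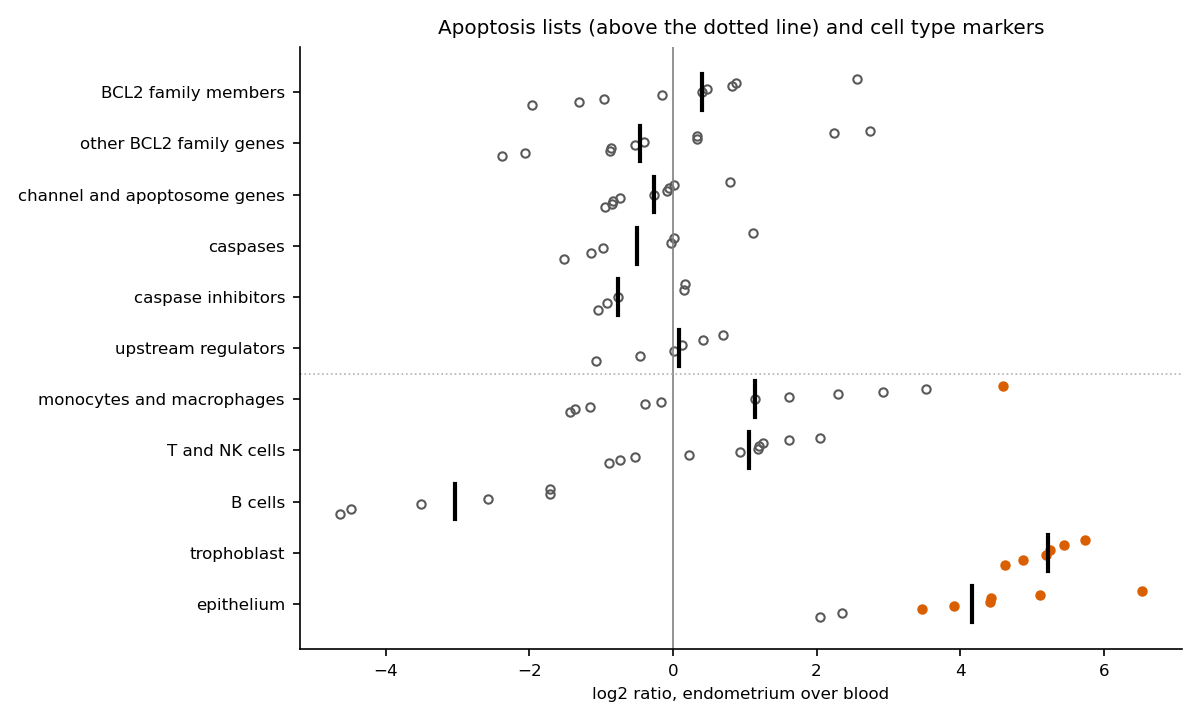
Log2 ratio of endometrium over blood (horizontal axis) of every tested gene of the BCL2 family, of 5 other apoptosis lists and of 5 lists of cell type markers, each point being a gene by its brightest probe. Black bars are medians and filled points are called genes, which are absent from the 6 apoptosis lists and present in the trophoblast, epithelium and monocyte lists.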

How the data were processed

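CD14+ cells of endometrium and blood from 4 cows were compared on 8 arrays. The authors deposited a table of log2 values, which their methods describe as lowess-normalized within arrays and quantile-normalized over the 16 channels, and scanner files with the intensity of each spot, from Feature Extraction (version 10.5.1.1 in the file headers and 9.5 in the submitters' processing notes). The median of every column was 8.00. When each column was set against the scanner files by rank, it equaled (at 100% of probes, within 0.001) the dye that its label names, but in the file given for the animal's other technical replicate. Flags and intensities were therefore read that way, a choice made after the values were seen. With the files as attached, the tissues would be turned in animals 1, 2 and 4, whose dyes were exchanged. The trophoblast markers were higher in endometrium in all 4 animals with the labels of the deposited values, with median log2 ratios of 4.84 to 5.43.

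Technical replicates were averaged, and log2 ratios within animals were tested against 0 with lmFit and eBayes of limma 3.58.1 (R 4.3.3, statmod 1.5.0 and the data.table package at version 1.17.8), with Benjamini-Hochberg adjustment over 16654 probes. Tables were made with numpy and pandas. The pairing comes from the labels, and deviations of the 2 tissues of an animal from the tissue means correlated at r of 0.628, 0.372, 0.239 and 0.452. No spot was saturated, between 65.2% and 82.9% of spots rose well above background in a channel, and the number of arrays limits precision. An exact permutation of tissues within 4 animals cannot give a p under 0.125.

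Members and lists were chosen with earlier results of these data known. All probes of a member were named. In other lists called genes and otherwise at most 3 genes with the largest ratios were named. The brightest of several probes stood for a gene in the lists and in the medians of member classes. The values of 1 gene that this rule names are not reported here. Endothelial, erythroid and platelet markers were also measured, with 0 called in each. Alternatives changed the values, centring, filter, pairing, dye term, technical replicate, test, threshold and animals.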

Additional observations from a re-analysis of the deposited data

Results flagged for a closer look

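In 30 groups of 4 values, the levels in each tissue and the ratios of the 10 BCL2 family probes, 1 value lay far from the others by Dixon's ratio. The endometrial log2 level of BCL2L1 was 9.31 in animal 4, beside 11.44 to 11.63 in the other animals, with a ratio of gap to range of 0.919, which is above the critical value for 4 samples. Chance alone marks about 1 in 20 such groups. The blood level of BCL2L1 in animal 4, 6.99, was also the lowest, and its log2 ratio, 2.33, lay within the range of the other animals.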

How the results depend on the processing

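The number of probes called over the whole array was 224. It was 11 with renormalized scanner signals and 123 without a filter on dim probes (21475 probes tested). With the methods' analysis of variance, as fitted here, it was 0. That fit has 1643 probes at its unadjusted p and does not pool the spread. The paper, by its own fit and thresholds, lists differentially expressed genes in both directions. At limma's unadjusted p the number of probes was 2670. When single animals were left out it was between 0 and 180: 64 without animal 1, 95 without animal 3 and 0 without animal 4, where 2674 probes passed limma's unadjusted p. In the fit with no replicate block, which drops the pairing of the tissues of an animal, 38 probes and 0 probes of the family were called. The number of BCL2 family probes called, 0, became 1 with centred ratios, with the stricter filter, with the dye term and with technical replicate 2 alone, in each case BCL2L1, and 2 at the unadjusted p. Of the other apoptosis genes 7 of 48 probes passed at limma's unadjusted p, beside 2670 of 16654 over the whole array. By adjusted p, 0 of the 48 were called under any alternative.

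BAX lay between -0.44 and 0.13 when single animals were left out and turned to 0.13 without animal 3, and no other member changed sign with the same sample labels. With the scanner files as attached, an alternative added after seeing the data, 0 probes were called (362 at limma's unadjusted p). There the mean log2 ratio was -1.21 for BCL2L1, 0.55 for BCL2L11, 0.37 for BCL2A1, -0.39 for MCL1, -1.28 for BCL2L2, -0.65 for BAK1 and 0.35 for the second BCL2 probe. The cause of these changes was not tested beyond what each setting alters.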
